A study of Triticum aestivum with 18 samples.

Results

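Root tips of the wheat-rye addition line 6R were set against root tips of the wheat cultivar Chinese Spring (CS), both grown without aluminium (Al). The samples were chosen by their titles, 3 of 6R control and 3 of CS control, which are 6 of the 18 samples of the series. An addition line holds all of the wheat chromosomes and, beside them, a pair of rye chromosomes, here 6R. CS is the wheat with no rye pair named in the labels. Seedlings had grown for 4 days in nutrient solution at pH 4.0 and then spent 24 h in fresh solution of the same kind. Each sample was made from 9 root tips of 1 cm, taken at an age of 5 days, and the labels call the samples biological replicates. The other samples are used here only beside these: 3 of 6R and 3 of CS kept for the 24 h in 200 µM AlCl3, and 3 control samples of a second addition line, 3R.

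Acid soil brings Al into solution, and Al stops growth first at the root tip. Rye tolerates Al better than wheat, and genes on several of its chromosomes, 6R and 3R among them, are known to contribute. Addition lines let a single rye chromosome be studied in a wheat background. The comparison asks how 6R and CS differ in acid solution without added Al. Levels are log2 intensities of single dye channels, and each difference below is 6R minus CS, so 1 unit is a doubling. In samples of whole root tips, fewer cells of a type and less RNA per cell cannot be told apart. The array values do not say from which chromosome, wheat or rye, a signal came.

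Unstressed 6R roots differed from unstressed CS roots at 28 of 45220 probes, or 0.0619% (limma, adjusted p under 0.05). Of these, 8 probes were higher in 6R (0.0177% of all probes) and 20 were lower (0.0442%). None of the 28 has a gene name in the platform annotation, which names 996 rows, or 2.20% of the probes. At that rate, 0.617 named probes would be found among 28. The lines had been normalized apart, and after 1 quantile normalization across all 18 samples 24 probes were called (0.0531%), 13 higher (0.0287%) and 11 lower (0.0243%) in 6R. Thus 28.6% of the calls were higher in 6R as deposited and 54.2% after the common normalization. The fits shared 19 probes, 8 higher and 11 lower, which are 67.9% of the deposited calls and 79.2% of the others. All 19 kept their sign, and the other 9 deposited calls had an adjusted p of 0.0947 or lower after the common normalization (limma). Leaving out a replicate took out its array, with both the control and the Al sample. The count depended on the replicates kept and on the shared spread. It was 17 without 6R replicate 1, 10 without CS replicate 1 and 14 without CS replicate 2. After the common normalization it was 8 without CS replicate 1, 7 without CS replicate 2 and 7 without CS replicate 3. The split by direction depended on the replicates kept as well. As deposited, 1 of 10 calls was higher in 6R without CS replicate 1 and 1 of 19 without CS replicate 3. After the common normalization 2 of 8, 3 of 7 and 0 of 7 were higher without CS replicates 1, 2 and 3 in turn. With the 6 control samples fitted alone the count was 0, with 3050 probes at an unadjusted p under 0.05 (limma).

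The shift between the scalings was small for each probe but one-sided. The median difference over all probes was -0.06 as deposited and -0.002 after the common normalization. Median levels were 7.22 in 6R control and 7.33 in CS control. The 3 samples of 6R lay wholly above the 3 of CS for 878 probes (1.94%) and wholly below for 3608 (7.98%). After the common normalization these counts were 1758 (3.89%) and 1949 (4.31%). A common quantile normalization gives all samples the same distribution of levels, so the near balance of directions on that scale is largely built in. At an unadjusted p under 0.05, 698 probes were higher (1.54%) and 2841 lower (6.28%) as deposited, against 1340 and 1309 after the common normalization (limma).

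**Figure D1:**
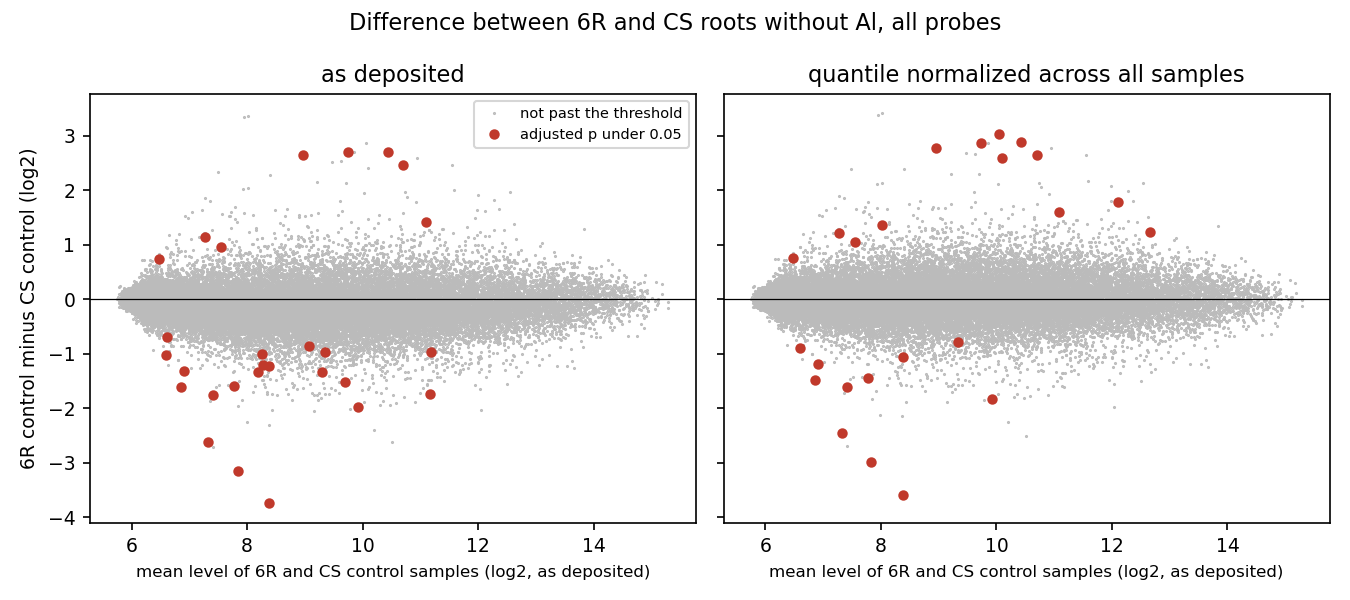
Difference of each probe, 6R control minus CS control in log2, against its mean level, as deposited (left) and after quantile normalization across all samples (right). Red points passed an adjusted p under 0.05 (28 left, 24 right), and the cloud lies slightly below 0 on the left, with a median of -0.06, and at -0.002 on the right.

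The called differences were large. The 8 rises ranged over 0.75 to 2.71 with a median of 1.94, and the 20 falls over -0.70 to -3.75 with a median of -1.34. Of the 28, 22 were at least 1 in size, 6 higher and 16 lower, among 654 probes of that size in all. For all 28 the 6R and CS samples did not overlap, a state that 9.92% of all probes shared as deposited and 8.2% after the common normalization. The 28 were called on these same samples, and a small p favours large differences without overlap. Both traits are thus largely built in by the call. The called probes had 6R means of 6.02 to 11.9 and CS means of 6.11 to 12.0. Levels under 6.3 lie near the lowest values of the table, and there a difference is compressed. In 6 of the 20 falls the 6R mean was under 6.3. In 1 of the 8 rises the CS mean was under 6.3. Over all probes 37.9% of the 6R means and 37.0% of the CS means were that low.

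**Figure D2:**
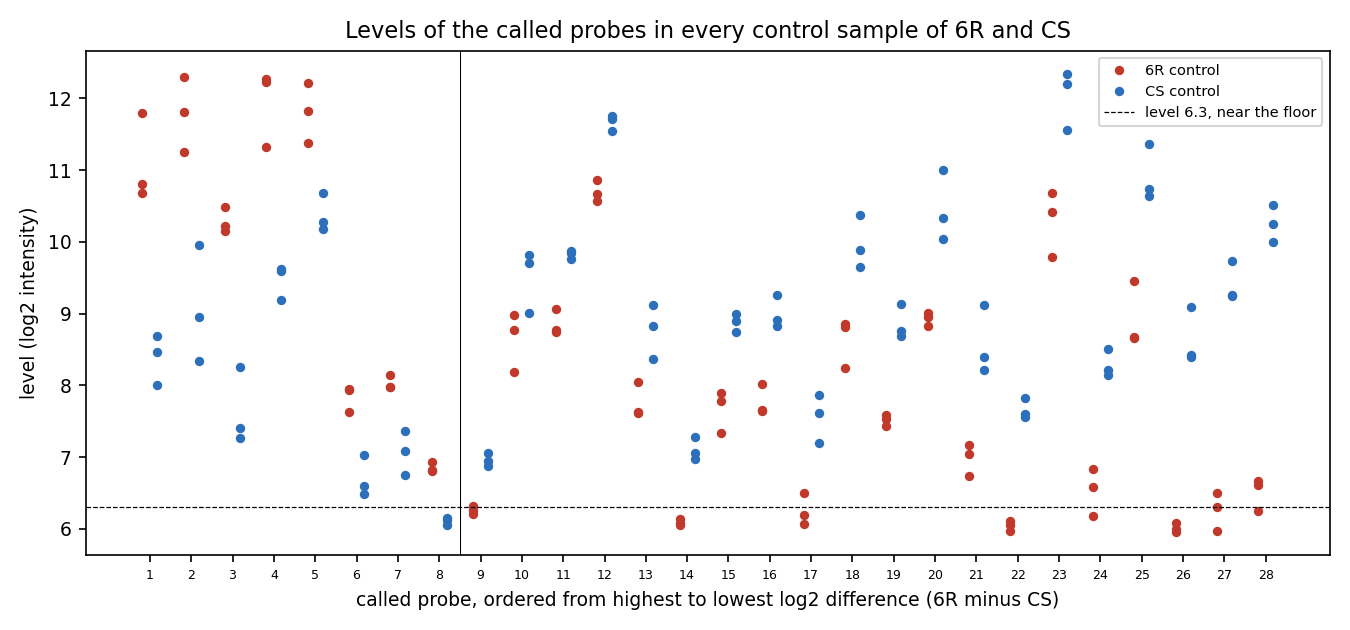
Levels in log2 intensity of the 28 called probes in each 6R control (red) and CS control (blue) sample, ordered by their difference, with rises left of the vertical line. Red and blue never overlap within a probe, and 6 of the falls have a 6R mean under the dashed line at 6.3.

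The deepest fall was at probe 29901, which had levels of 6.61, 6.25 and 6.67 in 6R control, against 10.25, 10.52 and 10.00 in CS control. The 6R samples were near the low end of the table, while every CS sample was bright. The difference was -3.75 ± 0.26 (SE) on the log2 scale (limma, adjusted p = 6.2e-05), and -3.59 after the common normalization (adjusted p = 9.9e-05). The 3R line had 10.49, 10.80 and 9.87, close to CS, with 3R minus CS at 0.13 (limma, adjusted p = 0.91). Probe 36542, the next in size among the falls, had 5.97, 6.50 and 6.31 in 6R control, against 9.74, 9.25 and 9.24 in CS control. Its difference was -3.15 ± 0.18 (SE) on the log2 scale (limma, adjusted p = 1.3e-05), and -2.99 after the common normalization (adjusted p = 2.7e-05). Here 3R was as low as 6R, at 6.41, 6.51 and 6.33. The 6R levels of both lie where differences are compressed, so neither value is an exact fold. Both probes were dim in all 6R samples, while 3R was like CS at the first and like 6R at the second.

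Among the rises, probe 7685 had 10.81, 10.68 and 11.79 in 6R control, against 8.47, 8.001 and 8.69 in CS control. Its difference was 2.71 ± 0.34 (SE), 6.53-fold (limma, adjusted p = 0.0096), and 2.87 after the common normalization (adjusted p = 0.0085). All of the 6R samples were above all of CS, and so were the 3R samples, at 10.70, 9.97 and 10.40. Probe 15005 had 12.30, 11.25 and 11.81 in 6R control, against 8.33, 9.95 and 8.95 in CS control. Its difference was 2.71 ± 0.31 (SE), 6.52-fold (limma, adjusted p = 0.0060), and 2.88 after the common normalization (adjusted p = 0.0059). The CS samples spread more widely here than those of 6R, but did not reach them. In 3R the levels were 10.97, 11.86 and 10.89. Without 6R replicate 1 neither rise passed (limma, adjusted p = 0.069 for probe 7685 and 0.054 for probe 15005), and probe 7685 did not pass without CS replicate 1, 2 or 3 either (0.116, 0.095 and 0.056). Without 6R replicate 1 the differences were 2.75 ± 0.42 and 2.59 ± 0.36 (SE). Without CS replicate 1, 2 or 3 probe 7685 had 2.69 ± 0.41, 2.61 ± 0.43 and 2.81 ± 0.41 (SE). These values stayed near 2.71, with a larger SE. In replicates 1 and 2 the scanner files of 3R share a leading number with those of 6R, which no CS file has. The comparison of 3R with CS rests on the same CS control samples, so its values are given side by side and are not independent. It called 1297 probes (2.87%) as deposited and 698 (1.54%) after the common normalization, and the difference in number from the 6R comparison was not tested.

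The 6R and CS samples kept in Al were separate samples that had shared their arrays with the controls, 1 Al and 1 control sample to an array. Each array held a single line, and values of its samples went together (correlation 0.625). The leading numbers of the scanner files were shared as well. The differences in Al are therefore not independent of those in control roots. In Al, 6R minus CS called 194 probes (0.429%), 49 higher (0.108%) and 145 lower (0.321%), or 183 (0.405%) after the common normalization. Of the 28 probes called without Al, 17 were called in Al in the same direction, 6 of the 8 higher and 11 of the 20 lower. Probe 29901 differed by -4.28 in Al (limma, adjusted p = 2.5e-06), with means of 6.40 in 6R and 10.68 in CS. Probe 36542 differed by -3.74 in Al, with means of 6.91 in 6R and 10.65 in CS. As in control roots, both were dim in 6R and bright in CS. Probe 7685 had means of 9.44 in 6R and 6.24 in CS, a difference of 3.20, and probe 15005 had 10.03 in 6R and 6.32 in CS, a difference of 3.71. In Al the CS means of these probes were at the low end of the table, while the 6R means were well above it.

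A second group of the 28 differed less between lines in Al than in control roots. For 9 probes, 2 higher and 7 lower in 6R control, the difference between lines itself differed between Al and control (limma interaction, adjusted p under 0.05, passed by 249 probes in all or 0.551%, and by 245 or 0.542% after the common normalization). All 9 were smaller in Al and 0 of the 9 were called there by limma, with Al differences of -0.43 ± 0.14 (SE) to 0.72 ± 0.32 (SE). The interaction contains the control difference that chose these probes, so a smaller value in Al is partly built in. The larger of the 2 rises was 2.65 in control roots, with means of 10.3 in 6R and 7.64 in CS, and 0.72 in Al, with 6.75 in 6R and 6.03 in CS. Of the 7 falls the deepest was -1.74 in control roots, with means of 10.3 in 6R and 12.0 in CS, and -0.17 in Al, with 9.05 in 6R and 9.22 in CS. Another 2 of the 28 met neither description. In sign, 2 of the 28 ran the other way in Al, and limma called 0 of them in that direction.

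**Figure D3:**
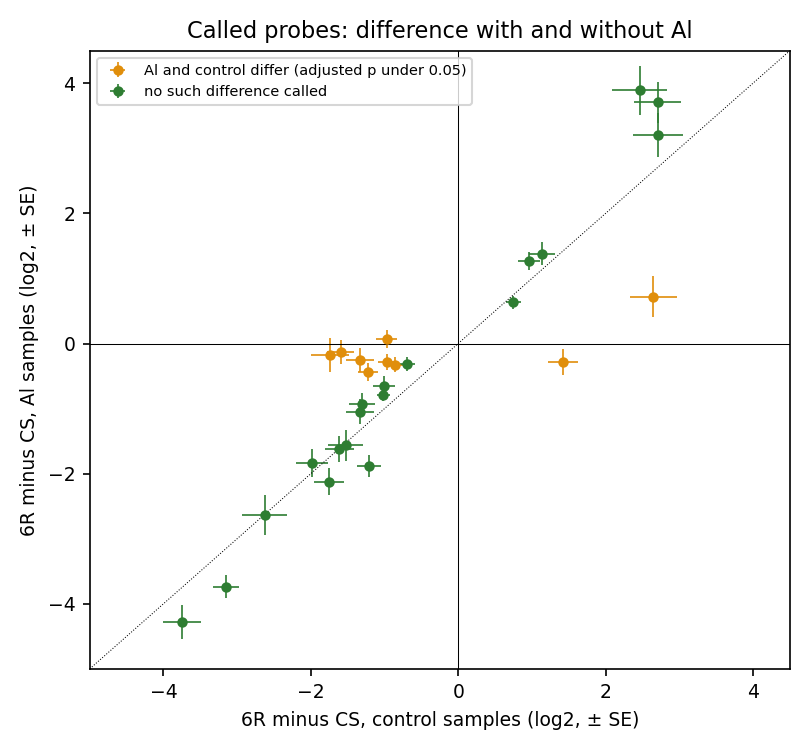
Difference of each of the 28 called probes, 6R minus CS in log2 with its SE, in control samples (horizontal) and in Al samples (vertical). The 9 orange points, for which the difference passed the test between Al and control, are smaller in size in Al than in control, between -0.43 and 0.72, and most green points lie nearer the diagonal.

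No gene with a name passed the test. The smallest adjusted p of a named probe was 0.0948 as deposited and 0.0902 after the common normalization (limma). At an unadjusted p under 0.05, 106 of the 996 named probes stood apart, 52 higher and 54 lower in 6R. Of all probes 7.83% did so, 1.54% higher and 6.28% lower. The genes below are therefore given as measured levels and not as changes. Their 95% intervals differ in width. The interval was -0.58 to -0.14 for HGGT, which was near the low end, 0.69 to 2.41 for IVR1 and -2.84 to -0.35 for Prx113-F. Over all probes, many of them near the low end, the median half-width was 0.45. For 34230 probes (75.7%) the interval lay within -1 and 1.

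Among metal chelation genes, TaDMAS1 encodes deoxymugineic acid synthase, which makes the iron-binding phytosiderophore of grass roots. Its levels were 11.94, 13.63 and 13.28 in 6R control, against 11.09, 10.47 and 11.53 in CS control. All of 6R lay above all of CS, by 1.92 on average, with a 95% interval of 1.13 to 2.71 (limma, adjusted p = 0.095). That interval depends on the dye term, without which the SE was 0.79 rather than 0.37 (limma, adjusted p = 0.82). A second TaDMAS1 probe read 10.91, 11.90 and 12.35 in 6R, against 10.03, 8.86 and 10.38 in CS, a difference of 1.96. With Al, the first TaDMAS1 probe differed by 1.61 (limma, adjusted p = 0.11). The 3 probes of wali1, a gene first known as induced by Al in wheat, all leaned lower in 6R, at -0.92, -0.67 and -0.69. At wali1 the dyes pulled 1 of these probes far apart: it read 14.36 in the Cy3 sample of 6R and 14.97 in that of CS, against 10.15 to 11.18 in the Hyper 5 samples. Each line had 1 Cy3 and 2 Hyper 5 controls, so such a gap is shared by the means. PCS1, a phytochelatin synthase, differed by -0.23 and 0.13 at its 2 probes. In the list of 7 metal chelation probes none was called and the median was -0.23.

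Gibberellin oxidases, which make the active growth hormone from its precursors, read higher in 6R at all 5 probes. GA20ox1a had 6.49, 8.25 and 8.42 in 6R control, against 6.47, 5.97 and 6.27 in CS control. Replicate 1 of 6R was level with the highest CS sample, the other two 6R samples were well above, and the CS mean was under 6.3. The difference was 1.49 with a 95% interval of 0.73 to 2.24 (limma, adjusted p = 0.20), and without 6R replicate 1 it was 1.98 and passed (adjusted p = 0.0015). That replicate is the Cy3 sample of 6R control. A second GA20ox1a probe differed by only 0.27, GA20ox1b by 0.47, GA20ox1d by 0.65 and GA3ox2-2 by 0.54. The list's median was 0.54 and its median after the common normalization 0.68, with 0 of 5 probes called by limma and 2 of 5 higher at an unadjusted p under 0.05, against 1.54% of all probes. In Al, GA20ox1a was near the low end in both lines, with a difference of -0.08.

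Starch and sugar genes went both ways. For the amylase gene amy1, 6R control had 7.90, 8.69 and 8.44, against 7.31, 7.30 and 7.54 in CS control, a difference of 0.96 (limma, adjusted p = 0.14). In Al, amy1 had means of 6.301 in 6R and 6.22 in CS, both at the low end of the table, and a difference of 0.08. The invertase gene IVR1, whose product splits sucrose, had 7.48, 9.65 and 9.51 in 6R, against 7.88, 6.32 and 7.80 in CS. The IVR1 groups overlapped, since replicate 1 of 6R read below replicate 1 of CS, and the difference was 1.55 (limma, adjusted p = 0.25). The other two IVR1 probes gave 1.47 and -0.25, so the probes of this gene disagree. Ss1, a sucrose synthase, leaned lower at all of its 4 probes, by -1.23 to -0.17. The granule-bound starch synthase gene waxy differed by -0.69 and -0.31. Of 28 probes on the list, 3 were higher and 4 lower at an unadjusted p under 0.05, against 1.54% and 6.28% of all probes. Limma called 0 of them, and the median was -0.13.

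The dehydrin rab, a late embryogenesis protein known to follow abscisic acid and water loss, had 6.06, 6.34 and 6.32 in 6R control, against 6.81, 6.98 and 7.15 in CS control. The 6R levels were at the low end of the table and CS was just above it, a difference of -0.74 (limma, adjusted p = 0.13). In Al, rab read 6.80, 6.75 and 7.31 in 6R, against 10.45, 10.72 and 10.71 in CS, a difference of -3.68 (limma, adjusted p = 1.4e-07). The gap between lines at rab was thus small without Al and wide with it, and the 3R control samples were low as well, at 6.13, 6.13 and 6.05. A second rab probe read 5.90, 5.96 and 5.93 in 6R and 5.89, 5.99 and 5.93 in CS, with no visible signal in either. Em, another late embryogenesis gene, had 6.06, 6.26 and 6.08 in 6R, against 6.47, 6.44 and 7.03 in CS, a difference of -0.52 (limma, adjusted p = 0.46). Of 10 dehydrin and LEA probes 0 were called by limma, 2 were lower at an unadjusted p under 0.05 (6.28% of all probes were), and 6 had a 6R mean under 6.3.

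Other named genes lower in 6R were avnla, PsbO, HGGT and VTE5. The avenin-like gene avnla, of a seed protein family, had 7.16, 7.85 and 7.54 in 6R control, against 8.83, 9.09 and 9.05 in CS control. The avnla groups stood well apart by -1.48, yet did not pass (limma, adjusted p = 0.21). Its second probe also read lower in 6R, at 6.51, 7.15 and 6.32 against 7.65, 7.66 and 7.57 in CS, and its remaining probe was at the low end in both lines. PsbO, of the oxygen-evolving complex, had 7.50, 8.62 and 8.79 in 6R, against 9.76, 9.50 and 9.22 in CS, a difference of -1.19 (limma, adjusted p = 0.45). The other PsbO probe differed by 0.07. HGGT and VTE5, of vitamin E synthesis, differed by -0.36 and -0.63, with HGGT near the low end in both lines. Eif4B, a translation initiation factor, was the remaining gene on the higher side, at 9.66, 10.23 and 8.60 in 6R, against 8.10, 8.31 and 8.67 in CS. Its groups overlapped and the difference of 1.14 did not pass (limma, adjusted p = 0.46). The second Eif4B probe differed by 0.097.

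**Figure D4:**
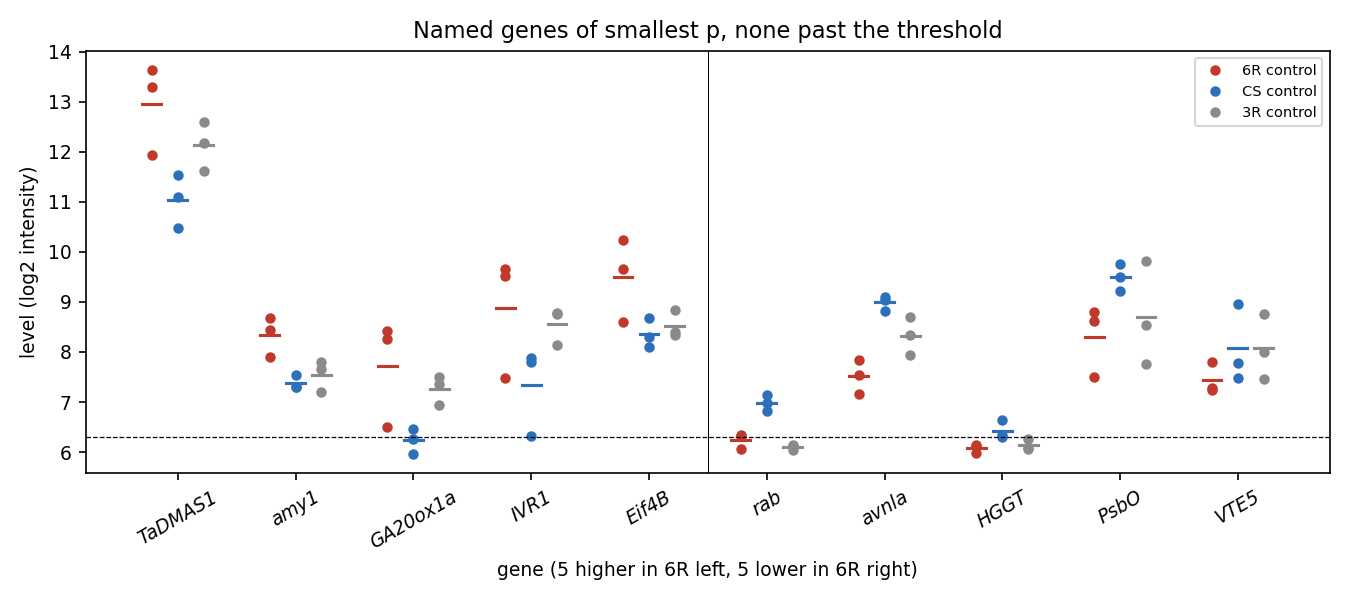
Levels in log2 intensity of the 10 named genes of smallest p in each 6R (red), CS (blue) and 3R (grey) control sample, with the group mean as a bar and a dashed line at 6.3. The 6R and CS points of IVR1, Eif4B and VTE5 overlap, and GA20ox1a has 1 of its 3 6R samples at the CS level.

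Genes with a LOC number alone reached similar sizes. LOC100037574 had 9.90, 11.74 and 11.35 in 6R control, against 8.92, 8.44 and 9.79 in CS control, a difference of 1.94 (limma, adjusted p = 0.17). LOC543428 differed by 1.24 (adjusted p = 0.16). On the lower side, LOC100125707 had 8.84, 9.61 and 9.75 in 6R, against 10.67, 10.72 and 10.26 in CS, a difference of -1.15 (limma, adjusted p = 0.25). LOC780568 differed by -0.29 with both lines near the low end.

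The remaining lists held no called probe either, and their medians are to be read against the median of all probes, -0.06. The ion pump and channel list had a median of 0.48 over 6 probes. Its ha1, the plasma membrane proton pump, leaned higher at all 5 probes, by 0.17 to 1.29, with overlapping samples in each. The probe at 1.29 had 0.84 without CS replicate 1 and 0.65 in replicate 3 alone. At that probe the overlap lay between dyes. In Cy3 6R read 7.60 and CS 7.21, and in Hyper 5 6R read 10.53 and 9.92 and CS 7.70 and 9.26. Its TPC1, a calcium channel, differed by 0.36 (limma, adjusted p = 0.62), or 0.19 without 6R replicate 3. The benzoxazinoid beta-glucosidases TaGlu1a and Taglu1b, which release defence compounds from their sugar conjugates, had a median of 0.30 over 5 probes. TaGlu1a led that list with a difference of 0.77 ± 0.54 (SE), which was 0.18 without 6R replicate 1 and 1.24 without 6R replicate 2. The tubulin, profilin and elongation factor list, often used as a reference, had a median of -0.12 over 22 probes, and 0 of them had a 6R mean under 6.3. There tubb2 had 14.15, 14.22 and 14.43 in 6R, against 14.85, 14.64 and 14.68 in CS, a difference of -0.46 (limma, adjusted p = 0.61), while the 4 probes of tubb1 differed by -0.34 to 0.42.

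Genes that handle hydrogen peroxide and redox state had a median of -0.04 over 14 probes. The peroxidase gene Prx113-F had 7.25, 7.26 and 7.51 in 6R control, against 7.98, 10.18 and 8.65 in CS control. The CS samples of Prx113-F were widely spread and all above 6R, and the difference of -1.59 did not pass (limma, adjusted p = 0.48) and was -0.85 without CS replicate 2. Its other probes gave -1.08 and 0.70, so they disagree. Trx-H, a thioredoxin, differed by -0.82, or -0.46 without 6R replicate 1 and -0.17 in replicate 3 alone. The methyl cycle list had a median of 0.10 over 21 probes, with SAMS, which makes S-adenosylmethionine, between -0.52 and 1.05 at its 4 probes. The highest of these was 0.62 without CS replicate 2 and 0.50 in replicate 3 alone. The protein breakdown list had a median of -0.38 over 5 probes, led by the ubiquitin-conjugating enzyme UBC1 at -0.72. Chaperones had a median of 0.01 over 8 probes, defence proteins 0.03 over 13, and splicing, translation and transcription genes 0.08 over 20. In lignin synthesis COMT1, a methyltransferase, differed by 0.32 and -0.08, and nucleotide and amino acid synthesis had a median of -0.10 over 5 probes. The tocopherol list is HGGT and VTE5, given above. Histone, chromatin and cell cycle genes had a median of 0.05 over 10 probes, and anther raftins 0.003 over 6.

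Marker lists of other tissues were read in the same samples. Of 46 seed protein and grain inhibitor probes, 39 had a 6R mean under 6.3 and 37 a CS mean under 6.3, with a median difference of -0.05. Of 33 photosynthesis probes, 11 were under 6.3 in each line, and the median difference was 0.13. So grain transcripts were mostly at the low end in both lines, and part of the photosynthesis probes gave signal in both. No probe named for an ALMT or MATE transporter, the organic acid channels and carriers of Al tolerance, was found in the annotation. No marker of rye chromosome 6R is named there either, so the line label could not be checked from a transcript.

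**Figure D5:**
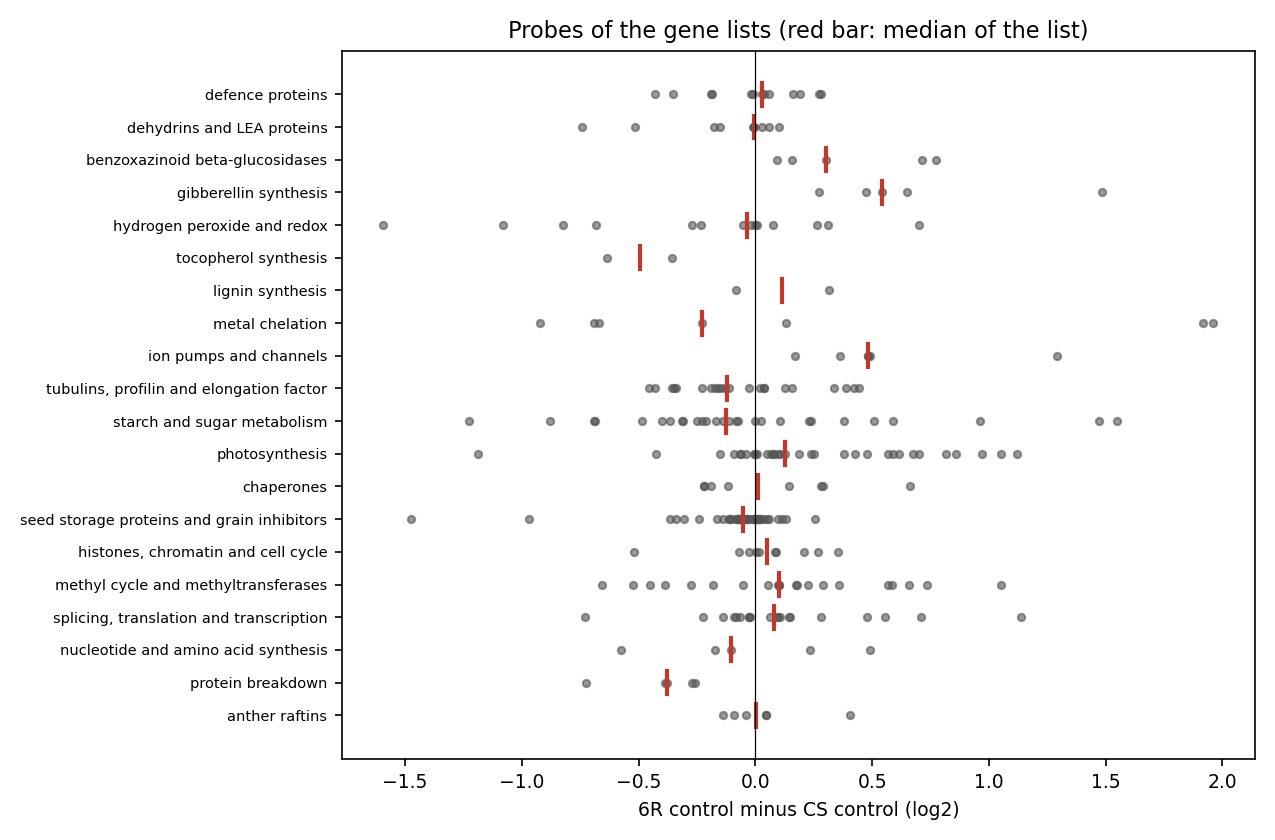
Differences in log2, 6R control minus CS control, of every probe of the 20 gene lists that have a probe, as grey points, with the median of each list as a red bar. The list medians run from -0.50 for the 2 tocopherol probes to 0.54 for the 5 gibberellin probes, and no point passed the test.

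Line and scanner file partly go together. The scanner files named for replicates 1 and 2 of 6R share a leading number that no CS file has, and those of replicates 1 and 2 of CS share another, while the replicate 3 files of both lines have a number in common. The 3R files go with those of 6R: replicates 1 and 2 have the number of 6R, and replicate 3 the common number. Where 3R was like 6R and unlike CS, replicates 1 and 2 were thus split by leading number in the same way. Over the 28 probes the mean difference in the called direction was 1.68 in replicates 1 and 2 and 1.62 in replicate 3, where 6R and CS share a number. All 28 had the called direction in replicate 3, which their lack of overlap fixes. The 28 were chosen on replicates 1, 2 and 3 together, so a large mean in replicate 3 is partly built in too. With the leading number as a fixed block, 3 probes were called, and 2 of the 28 were among them, probes 29901 and 36542. That fit links 6R and CS through replicate 3, since they share a leading number only there. It takes the effects of the leading numbers from the Al and 3R samples too, so it is not the difference in replicate 3 alone. For probes 7685 and 15005 the fit gave 2.75 ± 0.52 and 2.67 ± 0.49 (SE), against 2.71 ± 0.34 and 2.71 ± 0.31 (SE) in the main fit. In replicate 3 alone their control differences were 3.10 and 2.86. In replicates 1 and 2 line and leading number cannot be told apart.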

How the data were processed

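Each of the 9 arrays carried an Al and a control sample of a line, in Cy3 and Hyper 5, and the authors deposited each channel as a sample, per the labels. The deposited values are log2 intensities, made with limma per the submitters' processing notes (how they were background-corrected and normalized, and the version, were not found in the labels). Sorted values differ by at most 0.0064 within a line and by up to 0.178 between a 6R and a CS sample, as quantile normalization within each line would give. No columns were identical. Correlations over all probes were 0.955 to 0.973 within 6R control, 0.941 to 0.975 within CS control and 0.943 to 0.982 between them.

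All 45220 rows were fitted with limma 3.58.1 in R 4.3.3: 6 group means over 18 samples, dye as a fixed term and a random effect of array (correlation 0.625, 11 residual and 1.77 prior degrees of freedom), with Benjamini-Hochberg adjustment over all rows. The fit was repeated on values quantile normalized over all samples. P-values measure each difference against a spread pooled over all 6 groups, 3R and Al samples among them. With 3 samples a group, precision is limited. In simulated data the fit on 45220 rows for 6R minus CS control recovered 47 of 100 probes changed by 1 and 82 of 100 changed by 2, with 9 false calls. The simulation had 200 changed probes, noise drawn from a normal distribution and no other difference between groups. It held no effect of the scanner files' leading numbers. Its rates therefore need not hold for the real comparison, where 28 probes were called. Gene names come from the platform annotation: 996 rows have 1 symbol, 0 several and 44224 none. Of 553 symbols 551 were found in the RefSeq gene table. Comparisons, members and lists were chosen with earlier results of these data known. Named are the 5 genes of smallest p in each direction, since none passed, up to 4 members a list, and 2 LOC genes and 2 unnamed probes in each direction. Same-numbered 6R and CS samples, with the dye removed, had deviations with correlations of 0.39, 0.10 and 0.04, against -0.70 to 0.45 for different numbers. By the scanner files' replicate numbers the correlations were -0.70, 0.11 and 0.04. Deviations centred on 3 samples constrain each other, so these values cannot decide on pairing. The numbers were not taken as pairs. Alternatives covered normalization, dye, blocks, samples, the filter at 6.3, the variance prior and each replicate left out with both samples of its array.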

Additional observations from a re-analysis of the deposited data

Results flagged for a closer look

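For 3 named genes and 9 of the called probes, 6R roots had a difference from CS roots that was not the same in Al and in control solution. For amy1 the difference in Al minus that in control was -0.88 (limma interaction, adjusted p = 0.045), with 0.08 in Al and 0.96 in control. In Al the means of amy1 were 6.301 in 6R and 6.22 in CS, at the low end of the table, where a difference is compressed. For GA20ox1a it was -1.56 (limma interaction, adjusted p = 0.040), with -0.08 in Al and 1.49 in control. In Al both GA20ox1a means, 5.99 in 6R and 6.06 in CS, were at the low end too. Both genes were named for a small p of the control difference, which the interaction contains. A smaller difference in Al is thus partly built in for amy1 and GA20ox1a. For rab it was -2.93 (limma interaction, adjusted p = 2.6e-07), with -3.68 in Al and -0.74 in control. All 3 passed after the common normalization too, at adjusted p = 0.031, 0.038 and 3.5e-07 (limma). Of the 28 called probes, 9 passed the same test, against 0.551% of all probes. These too were chosen by the control difference, so the same limit holds for them. The causes were not tested.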

How the results depend on the processing

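From the deposited values, 28 probes were called. With the scanner files' replicate numbers as a block, which cross 6R replicates 1 and 2, the count was 117, and with the leading number of the scanner files as a fixed block 3. The 6 control samples alone gave 0 (3050 at an unadjusted p under 0.05) and the Hyper 5 samples alone 0 (3098), both with limma and fewer samples. Rows with a mean under 6.3 left out gave 17, and a variance prior with trend and robust 60. Leaving out a replicate, with both samples of its array, gave 10 to 30 calls. There were 17 without 6R replicate 1, 10 without CS replicate 1 and 14 without CS replicate 2. After quantile normalization across all samples, 24 were called, and the same changes gave 41, 3, 0 (2464 unadjusted), 0 (2461 unadjusted), 15 and 46. Leaving out a replicate then gave 7 to 25, with 8 without CS replicate 1, 7 without CS replicate 2 and 7 without CS replicate 3. The replicate block of the titles gave 34 calls as deposited and 20 after the common normalization, and is no test of pairing. Without the dye term 26 were called, without the array block 32, with the leading number as a random block 33, with median-centred samples 25, and 22 had a size of at least 1.

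Probe 7685 lost its call in 7 settings (2.61 to 2.81, adjusted p 0.056 to 0.50 in limma), among them each CS replicate and 6R replicate 1 left out. Probe 15005 lost it in 4 settings, among them 6R replicate 1 left out (adjusted p = 0.054). Probes 29901 and 36542 lost it with the 6 controls alone and the Hyper 5 samples alone (adjusted p = 0.38 and 0.45 for both). TaDMAS1 passed with the trend and robust prior (adjusted p = 0.039) and without 6R replicate 3 (0.041), and rab without 6R replicate 3 (0.047). Without the dye term TaDMAS1 had an adjusted p of 0.82 (limma). With the leading number as a fixed block its difference was 1.58 ± 0.52 (SE), which did not pass. Signs turned for genes that never passed. In replicate 3 alone, values were -0.067 for Eif4B, -0.13 for thionin, -0.36 for Taglu1b, -0.063 for PDI, -0.14 for FKBP70, -0.017 for Rbr1 and 0.084 for cys1. With the leading number as a fixed block they were -0.25 for Taglu1b, -0.0040 for COMT1, -0.10 for PDI and -0.019 for FKBP70. For thionin the Hyper 5 samples gave -0.13 and leaving out a replicate gave -0.052 (without 6R replicate 1) to 0.44. Leaving out a replicate gave -0.30 (without 6R replicate 1; -0.22 without CS replicate 1) to 0.46 for Taglu1b and -0.014 (without CS replicate 1) to 0.53 for COMT1. APT1 was 0.0059 with median-centred samples. The causes were not tested. In all, 839 values of single genes and probes kept their direction and side of the threshold or moved by less than the replicate spread, 15 lost the call, 4 gained it, 12 moved further and 17 turned. Only probes 7685, 15005, 29901 and 36542 had a call to lose, and all 15 losses were theirs. For the named genes, keeping their side of the threshold meant only that they were still not called. The 839 values therefore do not measure how firm the calls are.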
